A study of Mus musculus with 2 samples.

Results

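The spliceosome genes described here are those whose deposited KEGG annotation names the spliceosome, without the heat shock genes (symbols beginning with Hsp) that KEGG also places there. The rule found 75 genes with 102 probes among 7976 genes with 9143 probes. Of the 75 genes, 65 were listed on both arrays, 66 on replicate 1 and 74 on replicate 2. Replicate numbers follow the array names; a second deposited table has them the other way round, which leaves means and tests as they are. The share listed on both arrays was 86.7% for these genes and 65.1% for all genes. KO stands for primary CD11b-positive cells of IRF8 KO mice, which lack interferon regulatory factor 8, and wt for the same kind of cells from wt mice. CD11b, encoded by Itgam, is an integrin chain on the surface of myeloid cells. The cells of both genotypes were untreated. Total RNA was compared on 2 two-colour arrays, with KO RNA in Cy3 and wt RNA in Cy5 on each and no swap of the dyes, so a probe's dye bias and the genotype cannot be told apart. The series calls the arrays biological replicates, and the labels used here name neither the animals' age, the tissue nor the way the cells were selected.

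Introns are removed from pre-mRNA by the spliceosome, which is built anew on each intron from small nuclear ribonucleoproteins (snRNPs) and many further proteins. The U1 snRNP binds the 5′ splice site and the U2 snRNP the branch site, the U4/U6.U5 tri-snRNP then joins, and the Prp19 complex accompanies the remodelling into the catalytic form. SR proteins, which carry repeats of arginine and serine, mostly promote the use of nearby exons, and hnRNP proteins coat the nascent transcript and often oppose them. These genes are needed in every nucleated cell and are commonly most active in growing and dividing cells.

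Median raw signals over all probes were 1755 in KO and 1652 in wt on replicate 1, and 2585 in KO and 2448 in wt on replicate 2. All ratios below are log2 ratios of KO over wt as deposited, turned by the dyes in the labels, and n is 2 arrays throughout. Signals are printed raw, and the deposited ratio of a probe is the raw one minus 0.026 on replicate 1 and minus 0.392 on replicate 2, so a brighter KO signal on replicate 2 can go with a ratio near 0. Over all 5192 genes on both arrays, replicate 1 had a median of 0.03, replicate 2 one of -0.42, and the mean of the arrays one of -0.21. Values "relative to the array" have each array's median over the shared probes subtracted. Irf8 was not analysed here, as 0 probes bore its name, and the genotypes therefore rest on the labels alone. Itgam had log2 ratios of 2.06 and 1.70 on replicates 1 and 2. Among markers on both arrays, limma called 5 of 5 macrophage and 4 of 4 dendritic cell genes lower in KO, against 3.41% of all genes. It called 3 of 6 neutrophil and 5 of 6 proliferation genes higher, against 2.81%. Of the B cell and erythroid genes, 0 of 5 and 0 of 2 were called, against 6.22% in either direction. Their means were nevertheless all below 0, from -1.09 to -0.31 for B cell and from -1.10 to -0.85 for erythroid genes. No T cell or NK cell marker was listed on both arrays. The RNA of the genotypes thus differed in these cell type markers, and fewer cells of a type and less RNA per cell cannot be told apart. The part of the markers in the ratios below was not tested.

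No spliceosome gene passed the test between the genotypes, and their ratios spread less than those of all genes. Of the 65 genes on both arrays, 0 passed limma (Benjamini-Hochberg adjusted p of 0.05 over all 5192 genes), against 6.22% of all genes (2.81% higher and 3.41% lower in KO), and 1, Ppie, had an unadjusted p under 0.05, against 16.2%. On both arrays together, 0 reached 2-fold one way, against 4.91% of all genes. On replicate 1 alone, 5 reached 2-fold in either direction (Magoh, Ppil1, Tra2a and Tra2b higher, Ppie lower), against 13.0% of all genes. On replicate 2 alone, 1 did (Prpf19, lower), against 15.0%. With each array centred on its median, 0 were called, against 5.26% of all genes. Their mean ratios ran from -0.96 for Ppie to 0.61 for Magoh, with an SD over genes of 0.30, against 0.59 over all genes. The middle 95% of them lay between -0.63 and 0.48, and that of all genes between -1.30 and 1.24. Their median was 0.20 on replicate 1 and -0.55 on replicate 2. Relative to the array these medians were 0.16 and -0.12. The median of the means was -0.13, against -0.21 for all genes. Probes of spliceosome genes were brighter than all probes. Their median raw signals were 2627.5 in KO and 2168.5 in wt on replicate 1, against 1755 and 1652. On replicate 2 these were 4137 and 4120, against 2585 and 2448. The part of signal in the smaller spread was not tested.

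A call that was not made does not show an equal level. The limma fit gave every gene the same standard error of 0.40, so that each 95% interval reached 0.78 on the log2 scale to either side of the mean. For 28 of the 65 genes this interval stayed within 2-fold in both directions, against 33.5% of all genes. The 28 include Ddx5, Tra2a and Tra2b, whose own SD between the arrays was 1.10, 1.30 and 1.24, because the interval uses the common standard error and not a gene's own spread. Sf3b1, the subunit of the U2 snRNP that holds the branch site, had a mean of -0.07 with an interval of -0.85 to 0.71. For Prpf8, the scaffold of the catalytic centre, the mean was -0.43 with an interval of -1.21 to 0.35, which includes a 2-fold lower level in KO. All these intervals are those of the deposited ratios, in which the offset of replicate 2 remains and the median of the means was -0.21. With each array centred on its median, the median standard error was 0.27, and the mean of Prpf8 was -0.24.

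**Figure D1:**
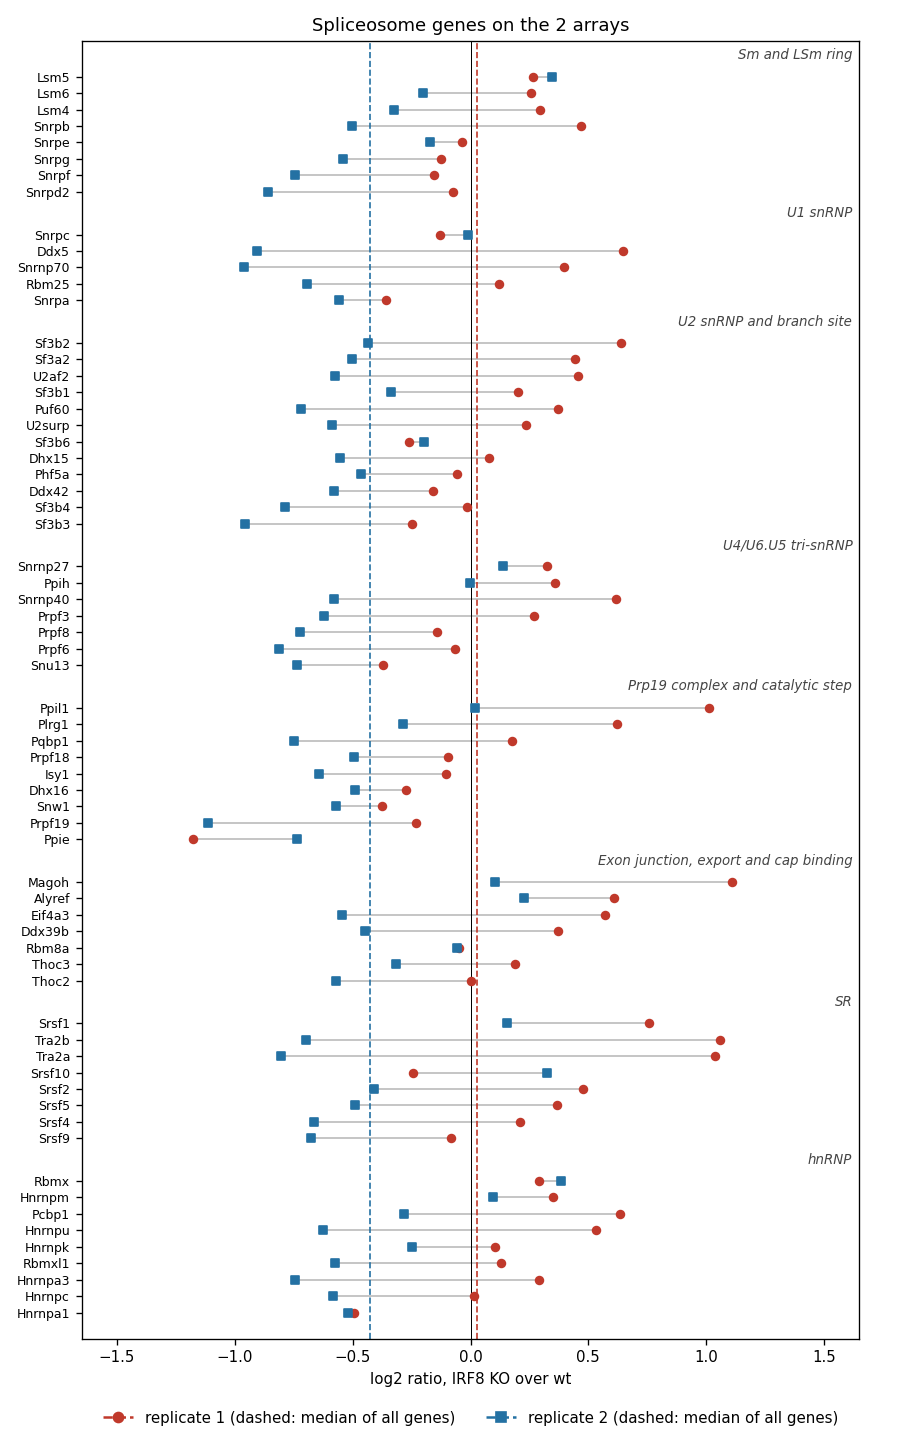
Log2 ratio of KO over wt (x axis) of each of the 65 spliceosome genes on both arrays (rows, grouped by role), with a circle for replicate 1, a square for replicate 2 and a line joining them; dashed lines mark the median of all genes on each array, 0.03 and -0.42. Most squares lie left of their circles, as the dashed lines do, and the genes spread around their own array's line.

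Among the genes of the Sm and LSm rings, which form the protein collar of the U snRNAs, 0 of 8 were called. For this and each class below, the share called over all genes was 6.22%. Snrpd2, an Sm protein, was lowest with -0.07 and -0.86 on replicates 1 and 2, from signals of 5512 in KO and 5698 in wt on replicate 1 and of 9974 in KO and 13775 in wt on replicate 2 (its probe matched several genes). Lsm5, a protein of the U6 ring, was highest with 0.26 and 0.34, from 2957 in KO and 2418 in wt on replicate 1 and 6216 in KO and 3733 in wt on replicate 2. Lsm5 was thus above wt on both arrays and Snrpd2 below it on both, and neither passed limma (adjusted p = 0.821 and 0.663). The class had a median of -0.06, and medians relative to the array of 0.07 and 0.01. Snrpd3, another Sm protein, was listed on replicate 2 only, at -0.10.

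The U1 snRNP, which pairs with the 5′ splice site, had 0 of 5 genes called. Snrpa, an RNA-binding protein of this particle, gave -0.36 and -0.56 on replicates 1 and 2, and Snrpc, which steadies the pairing with the splice site, -0.13 and -0.01. Snrnp70, which binds a stem loop of U1 RNA, gave 0.40 and -0.96, opposite signs around a mean of -0.28. For U2 snRNP and branch site proteins, 0 of 12 were called and the class median was -0.20, close to the -0.21 of all genes. Sf3b3, a subunit of the SF3B complex, was lowest with -0.25 and -0.96 (signals of 2117 in KO and 2473 in wt on replicate 1, and 3970 in KO and 5871 in wt on replicate 2). Sf3b2, of the same complex, was highest with 0.64 and -0.44. U2af2, the large subunit of the factor that reads the polypyrimidine tract, stood between them at 0.46 and -0.58, an average of 3 probes. The 1 probe that matched a RefSeq transcript gave -0.06 and -0.49. The 2 that matched none averaged 0.71 and -0.62, so the value above 0 on replicate 1 came from them. The splice factor gene Smndc1 was listed on replicate 1 only (-0.57) and Cherp on replicate 2 only (-0.15).

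The U4/U6.U5 tri-snRNP had 0 of 7 genes called. Snu13, which binds the U4 snRNA, was lowest with -0.37 and -0.74, and 1 of its probes matched several genes. Snrnp27 was highest with 0.32 and 0.14, above wt on both arrays, with an SD of 0.13. The class median relative to the array was 0.23 for replicate 1 but -0.20 for replicate 2, with opposite signs. Prpf38a and Prpf38b, listed on replicate 2 only, stood at -0.01 and -0.77.

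The Prp19 complex and the proteins of the catalytic steps held the lowest and the second highest of all 65 genes, with 0 of 9 called. Ppie, a cyclophilin (peptidyl-prolyl isomerase) of the active spliceosome, was lowest. Its probe (build 37, chromosome 4, 122812313 to 122812383, within the RefSeq span of the gene) had signals of 623 in KO and 1386 in wt on replicate 1, and of 998 in KO and 1268 in wt on replicate 2. The KO signal was the lower one on both arrays, and the log2 ratios were -1.18 and -0.74. The mean was -0.96 ± 0.31 (SD), with an interval of -1.74 to -0.18, a level 1.94-fold lower in KO as deposited. This includes the offset of replicate 2. Relative to the array Ppie stood at -1.22 and -0.31, with a mean of -0.77. It did not pass limma over all genes (adjusted p = 0.160), nor after centring of the arrays (adjusted p = 0.230). It passed with an intensity trend (adjusted p = 0.0137) and with loess within arrays (adjusted p = 0.0223), where 4.60% and 12.7% of all genes were called.

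Ppil1, another cyclophilin of the spliceosome, was highest in that class. It had signals of 2414 in KO and 1174 in wt on replicate 1, and of 3243 in KO and 2436 in wt on replicate 2, with log2 ratios of 1.01 and 0.02 (adjusted p = 0.607 by limma). The 2 cyclophilins thus lay at opposite ends of the same class. Prpf19, the ubiquitin ligase that names the complex, had -0.23 and -1.12, the lowest ratio of the 65 genes on replicate 2. In this class 6 of 9 genes lay below the array on both replicates, against 31.6% of all genes, with medians of -0.14 and -0.15 relative to the array. Its members on replicate 2 only were Aqr (-0.79), Bcas2 (-0.70), Ctnnbl1 (-0.18) and Cwc15 (-0.14).

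The class of exon junction, mRNA export and cap binding proteins had 0 of 7 genes called and the second highest class median, -0.04. Its genes were Alyref, Ddx39b, Eif4a3, Magoh, Rbm8a, Thoc2 and Thoc3, with no cap binding protein among them. Magoh, a core subunit of the exon junction complex that marks spliced junctions, was the highest of the 65 genes. Its probe (build 37, chromosome 4, 107559859 to 107559929, within the RefSeq span) had signals of 7360 in KO and 3346 in wt on replicate 1, and of 21377 in KO and 15159 in wt on replicate 2. KO was the brighter channel on both arrays, with log2 ratios of 1.11 and 0.10 and a mean of 0.61 ± 0.71 (SD). The interval of -0.17 to 1.39 included 0 (adjusted p = 0.501 by limma; adjusted p = 0.163 after centring; adjusted p = 0.0426 with loess). Alyref, the export adaptor listed as Thoc4, gave 0.61 and 0.23. Rbm8a, the partner of Magoh in the complex, gave -0.05 and -0.06. Eif4a3, its RNA-binding helicase, gave 0.57 and -0.55, from a probe that matched several genes. The Rbm8a value on replicate 2 averages probes at -0.34 and 0.22, and relative to the array Rbm8a stood at -0.08 and 0.37. Eif4a3 stood at 0.54 and -0.12 relative to the array. Thoc2, of the THO export complex, was lowest with 0.00 and -0.57. Magoh, Rbm8a and Eif4a3 thus did not share a direction on both arrays by these probes, though the deposited ratios of Rbm8a were close to 0.

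**Figure D2:**
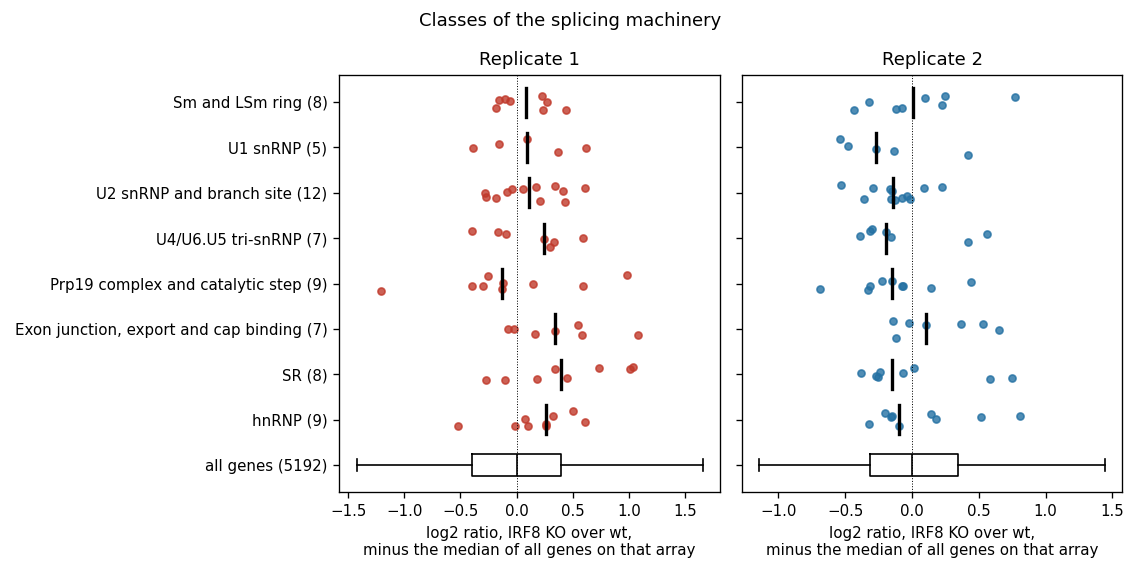
Log2 ratio of KO over wt minus the median of all genes on that array (x axis) for the spliceosome genes of each class (rows, number of genes in brackets), for replicate 1 on the left and replicate 2 on the right; short black bars are class medians, and the box gives the quartiles of all 5192 genes with whiskers at their middle 95%. The class medians lie inside the box on both arrays.

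The SR proteins had 0 of 8 genes called and the highest class median, 0.04. Srsf1, the founding SR protein, was highest with 0.76 and 0.16, from signals of 3430 in KO and 1994 in wt on replicate 1 and of 7303 in KO and 4994 in wt on replicate 2. Srsf9 was lowest with -0.08 and -0.68, from 1534 in KO and 1594 in wt on replicate 1 and 2695 in KO and 3286 in wt on replicate 2. Srsf1 was above the array and Srsf9 below it on both replicates, and neither passed limma (adjusted p = 0.671 and 0.758). Relative to the array the class had a median of 0.38 on replicate 1 and -0.15 on replicate 2. Srsf3, an SR protein of small size, was listed on replicate 2 only, at 0.24.

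For the hnRNP class, which includes the poly(C)-binding Pcbp1 and the Rbmx proteins, 0 of 9 genes were called. Hnrnpa1, a repressor of exon use in many genes, was lowest with -0.49 and -0.52, and its 2 probes matched several genes. Those probes gave -0.34 and -0.65 on replicate 1 and -0.84 and -0.20 on replicate 2, so that the likeness of the arrays held for the average of the deposited ratios and not for either probe. Rbmx, an X-linked RNA-binding protein, was highest with 0.29 and 0.38, from 3257 in KO and 2619 in wt on replicate 1 and 5406 in KO and 3156 in wt on replicate 2. Relative to the array, Hnrnpa1 stood at -0.53 and -0.10 and Rbmx at 0.25 and 0.81. Grouped by symbol alone, 10 snRNP core genes (Snrp and Lsm) had medians of -0.05 and -0.41 on replicates 1 and 2, 6 Hnrnp genes 0.20 and -0.55, and 8 SR genes (Srsf and Tra2) 0.42 and -0.58. The SR genes had the highest of these medians on replicate 1 and the lowest on replicate 2. No difference between classes was tested.

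The arrays disagreed for several of these genes. Pearson's r between the arrays was 0.24 over the 65 genes and 0.54 over all genes, and Spearman's rho 0.23 and 0.42; genes share the arrays and are not independent. These coefficients also depend on how widely genes spread, and the SD of the means was 0.30 over the 65 genes, against 0.59 over all genes. The gap between the centred arrays was not wider for the 65 genes. Its median size was 0.36, against 0.41 for all genes. Relative to the array, 22 of the 65 genes lay above on replicate 1 and below on replicate 2, against 18.5% of all genes. The reverse held for 5, against 19.1%. With loess the same counts were 18 (18.1% of all genes) and 8 (17.1%). With each array's median subtracted, 0 of the 65 had ratios of opposite sign that were both 0.5 or more in size, against 1.95% of all genes. Above the array on both replicates were 17 genes, against 30.8% of all genes, and below on both 21, against 31.6%.

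**Figure D3:**
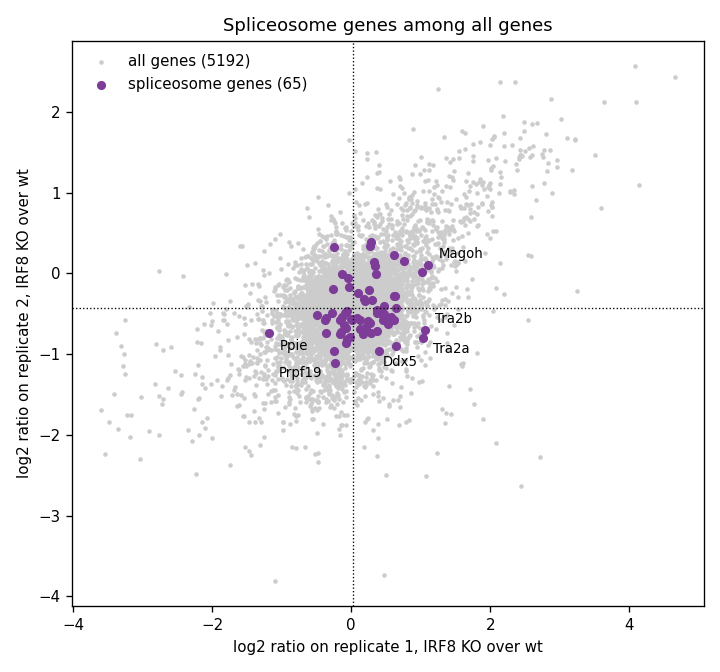
Log2 ratio of KO over wt on replicate 1 (x axis) and replicate 2 (y axis) for 5192 genes (grey) and the 65 spliceosome genes among them (purple), with dotted lines at the medians of all genes. The spliceosome genes form a compact cloud around the crossing of the medians, with Ppie at the left and Magoh, Tra2a and Tra2b at the right.

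Ddx5, Tra2a and Tra2b had the widest gaps between the arrays and were chosen after their values were seen. They were the 3 of 65 genes with a ratio at least 1.5 higher on replicate 1 than on replicate 2, against 4.18% of all genes, so that such a gap was not rare on these arrays. Ddx5, an RNA helicase that unwinds the pairing of U1 with the 5′ splice site, gave 0.65 and -0.91. The SR-like proteins Tra2a and Tra2b, which bind GAA-rich exonic enhancers, gave 1.04 and -0.81, and 1.06 and -0.70. Means near 0 for these genes (-0.13, 0.12 and 0.18) thus come from opposite signs of the deposited ratios, not from 2 flat arrays. Relative to the array, the ratios were 0.61 and -0.48 for Ddx5, 1.00 and -0.38 for Tra2a, and 1.02 and -0.27 for Tra2b. The signs stayed opposite, while the ratios on replicate 2 were smaller in size than as deposited. The immediate early genes Fos (2.71 and -2.27) and Jun (2.08 and -2.10), also chosen after their values were seen, had opposite signs on the arrays in the same order, and their part in this was not tested.

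Probes of a gene differed in the size of the gap. A pair of Ddx5 probes at the same position (build 37, chromosome 11, 106649664 to 106649734) gave 1.18 and 1.17 on replicate 1 and -1.39 and -1.30 on replicate 2. The brighter of the pair had 21602 in KO and 9342 in wt on replicate 1, and 26777 in KO and 53522 in wt on replicate 2. The other 2 Ddx5 probes, at signals between 51019 and 63607 where the scanner is close to its ceiling, gave -0.01 and 0.24 on replicate 1 and -0.47 and -0.46 on replicate 2. For Tra2b, a probe on chromosome 16, 22258246 to 22258316, gave 2.15 and -0.96, from 3005 in KO and 664 in wt on replicate 1 and 2419 in KO and 3583 in wt on replicate 2. That probe lies inside the RefSeq span of Tra2b (22245813 to 22266002) but matched no RefSeq transcript in the deposited annotation. The 2 Tra2b probes that matched one gave 0.36 and 0.67 on replicate 1 and -0.53 and -0.60 on replicate 2. Without the unmatched probe the mean of Tra2b was -0.026, in place of 0.18.

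Tra2a showed the same arrangement more weakly. Its unmatched probe (chromosome 6, 49212971 to 49213041) gave 1.13 and -1.06 and its matched probe 0.94 and -0.55. On replicate 2 the matched probe had raw signals of 6304 in KO and 7024 in wt, and the unmatched one 6031 and 9606. Of 7 spliceosome genes with both kinds of probe, the unmatched one was higher on replicate 1 in 6 and lower on replicate 2 in 5. The medians of these differences were 0.48 and -0.20. Over the 106 genes of the arrays with both kinds of probe, the shares were 46.2% and 50.9%, and the medians -0.09 and -0.01. The 7 genes were Rbm25, Snrpb, Snrpg, Snu13, Tra2a, Tra2b and U2af2. What the unmatched probes detect (an intron, an unlisted exon or another transcript) was not tested.

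**Figure D4:**
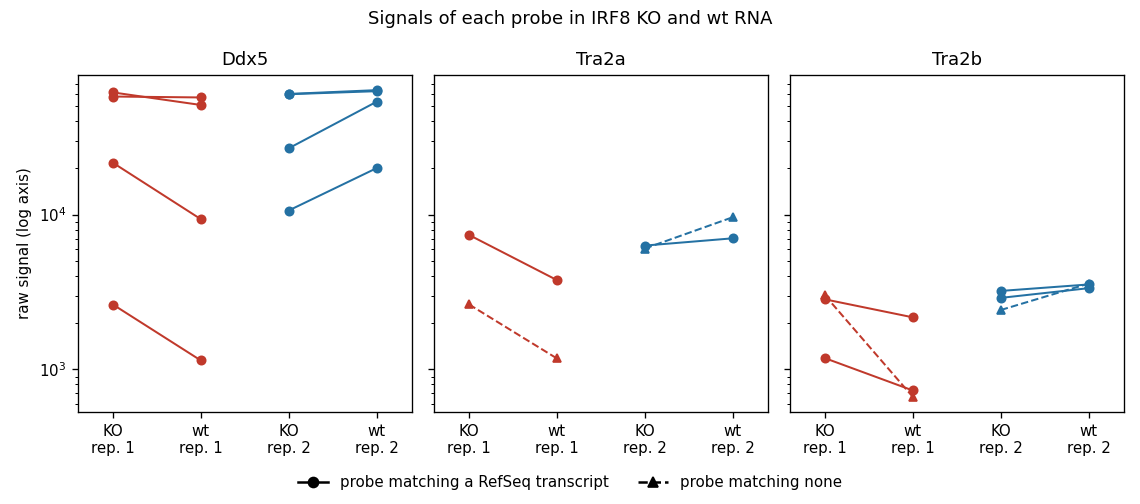
Raw signal (log axis) of each probe of Ddx5, Tra2a and Tra2b in KO and wt RNA on replicate 1 (red) and replicate 2 (blue); circles with solid lines are probes that match a RefSeq transcript and triangles with dashed lines those that match none. Lines fall from KO to wt on replicate 1 and climb on replicate 2, hardly so for the 2 Ddx5 probes near the scanner's ceiling. The matched Tra2a and Tra2b probes also climb little on replicate 2. Their signals there are 6304 in KO and 7024 in wt for Tra2a, and 3212 and 3537, and 2897 and 3347, for Tra2b. The steepest line is that of the unmatched Tra2b probe, with 3005 in KO and 664 in wt.

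The promoters of these 3 genes are shown because the genes had the same order of the arrays. Each window runs from 250 bases before to 50 bases after a start in RefSeq on GRCm38.p6, and of the 3 windows of Ddx5 the most downstream one is shown. Capitals mark every match, on either strand, to the motifs searched: a direct repeat of GAAA with a spacer of 2 bases (the interferon-stimulated element), GGAA followed after 2 bases by GAAA (the ETS-IRF composite element), TGACGTCA (the cyclic AMP response element), CCGGAAG (ETS factors), CCAAT (bound by NF-Y), GGGCGG (the GC box) and TATAAA. Matches to different motifs can overlap, as those of CCGGAAG with the GC box and with the composite element.
Ddx5, chr11:106788445-106788744, minus strand: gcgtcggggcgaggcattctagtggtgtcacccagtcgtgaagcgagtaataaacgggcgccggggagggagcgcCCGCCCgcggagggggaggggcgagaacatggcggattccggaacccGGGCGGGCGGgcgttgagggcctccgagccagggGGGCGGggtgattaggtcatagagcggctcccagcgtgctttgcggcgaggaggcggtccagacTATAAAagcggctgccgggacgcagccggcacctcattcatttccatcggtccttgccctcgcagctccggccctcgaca
Tra2a, chr6:49264003-49264302, minus strand: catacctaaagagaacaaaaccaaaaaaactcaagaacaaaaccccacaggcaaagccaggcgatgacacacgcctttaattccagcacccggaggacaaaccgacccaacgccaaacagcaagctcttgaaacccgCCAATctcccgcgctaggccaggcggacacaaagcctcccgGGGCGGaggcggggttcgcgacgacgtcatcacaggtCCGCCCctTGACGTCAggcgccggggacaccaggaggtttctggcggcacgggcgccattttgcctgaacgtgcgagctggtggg
Tra2b, chr16:22265956-22266255, minus strand: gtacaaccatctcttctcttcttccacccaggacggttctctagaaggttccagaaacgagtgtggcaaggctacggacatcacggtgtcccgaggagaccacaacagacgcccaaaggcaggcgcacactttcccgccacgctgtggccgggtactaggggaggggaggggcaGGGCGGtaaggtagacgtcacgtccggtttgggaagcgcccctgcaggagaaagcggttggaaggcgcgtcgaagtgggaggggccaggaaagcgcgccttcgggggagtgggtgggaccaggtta
The Ddx5 window holds a TATAAA and several GC boxes, that of Tra2a holds TGACGTCA, and that of Tra2b holds, of the motifs searched, 1 GC box. Of these motifs, the GC box was the one present in all 3 printed windows. The Ddx5 windows not printed held no GC box. The one at 106789136 to 106789435 held CCAAT, and the one at 106788858 to 106789157 held CCGGAAG.

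RefSeq promoter windows were found for 63 of the 75 genes, 75 windows in all. The 63 include genes listed on 1 array only, such as Aqr and Bcas2, whereas the array genes below are those on both. The interferon-stimulated element was in 0 of the 63, against 3.89% of the 3884 genes on both arrays that had a window and 3.99% of all genes with one. The composite element was in 1, Isy1, against 3.24% of the array genes. CCGGAAG was in 28 of the 63 (44.4%), against 20.2% of the array genes and 9.93% of all genes with a window. Counted by window, the shares were 40% for the spliceosome genes and 17.1% for the array genes. TGACGTCA was in 4 genes, namely Bcas2, Snrpa, Snrpg and Tra2a (6.35%, against 3.17%). GGGCGG was in 68.3%, against 67.3%, CCAAT in 52.4%, against 43.6%, and TATAAA in 14.3%, against 9.94%. These shares describe letters, not binding, and were not tested. The Ppih window holds 3 copies of CCGGAAG. Ppih is a cyclophilin of the tri-snRNP with log2 ratios of 0.36 and 0.00, and its window is printed as an example of this motif.
Ppih, chr4:119320474-119320773, minus strand: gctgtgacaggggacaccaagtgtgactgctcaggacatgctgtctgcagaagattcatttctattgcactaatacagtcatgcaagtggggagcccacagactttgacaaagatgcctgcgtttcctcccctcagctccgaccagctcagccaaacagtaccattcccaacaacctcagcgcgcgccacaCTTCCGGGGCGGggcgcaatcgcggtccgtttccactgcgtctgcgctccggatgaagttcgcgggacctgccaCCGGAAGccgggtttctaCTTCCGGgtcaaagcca

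Splicing genes outside the KEGG pathway had no calls either. Of 79 such genes in 4 lists, 37 were on both arrays and 0 were called by limma, against 6.22% of all genes. Their means ran from -0.54 for Zmat5, a protein of the minor spliceosome, to 0.27 for Hnrnpa2b1, and their median was -0.11. Hnrnpa2b1, which binds pre-mRNA and sorts RNAs, had 1.22 and -0.69 on replicates 1 and 2, the same order as Tra2a and Tra2b. The SR protein kinase Srpk1 gave 0.77 and -0.65 and the kinase Clk1 0.24 and -0.85, with opposite signs on the arrays. Relative to the array, 15 of the 37 genes lay above on replicate 1 and below on replicate 2, against 18.5% of all genes, and 3 the reverse, against 19.1%. Above on both were 12, against 30.8%, and below on both 7, against 31.6%. Clns1a, Ddx20, Lsm10 and Tgs1, the genes on both arrays from the list named for snRNP assembly, had means between -0.50 and -0.21. On both arrays were 27 of 42 genes of the list named for hnRNP and SR-related genes, and 3 of 10 of that for SR protein kinases and phosphatase. The list for snRNP assembly had 4 of 18 there, and that for the minor spliceosome 3 of 9. These names are those of the lists and not of each gene's role.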

How the data were processed

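Per the file headers, the authors normalized the log2 ratios (Cy5 to Cy3) in the mAdb database by its 50th percentile option. Intensities in the deposited table are raw spot signals, mean minus median background, kept at 100 or more and at a signal-to-background ratio of at least 1 in both channels, per the file headers. This filter removes genes that hardly any RNA of 1 genotype holds. Each deposited KO over wt log2 ratio was the raw one minus 0.026 on replicate 1 and 0.392 on replicate 2. On shared probes the raw median was -0.03 on replicate 2 and the deposited one -0.42. The deposited value table and the array names of the larger table disagree on which array is replicate 1. The array names were followed here, and which source is right was not settled: every value given for replicate 1 or 2 may belong to the other, while means, tests and counts of calls stay as they are.

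Symbols were updated by gene ID through RefSeq (102 of 102 member probes matched; 5 symbols changed), probes of a gene were averaged, and both arrays were fitted with limma 3.58.1 (R 4.3.3; intercept, eBayes, two-sided), adjusted over 5192 genes. eBayes returned an infinite prior degree of freedom, so the test asked for a mean of at least 1.18 in size. With 2 arrays an exact sign-flip p cannot go below 0.5, and their number limits all precision. P-values rest only on the spread between these arrays pooled over all genes, and a gene's own spread does not enter them. Of the member probes, 11 matched several genes, 9 no RefSeq transcript and 3 were near the ceiling (60000 or more). Genes were named where they passed limma or were 2-fold on both arrays, where they were the highest or lowest of a class, where centred ratios of 0.5 or more in size had opposite signs (0 members), or where 2-fold and listed on 1 array only (0 members); others named were chosen to complete a class or after their values were seen. The members and lists were chosen with earlier results of these data known.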

Additional observations from a re-analysis of the deposited data

How the results depend on the processing

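The count of spliceosome genes called was 0 with the deposited ratios, with centred arrays, with only spots of signal 500 or more, with the strongest probe of a gene, and without probes near the ceiling, matching several genes or (added after seeing the data) matching no RefSeq transcript. It was 1 (Ppie) with an intensity trend and 2 (Magoh and Ppie) with loess, where 658 of all genes passed, against 323 with the deposited ratios; the cause was not tested. Of all calls, 45.2% were higher in KO with the deposited ratios, 70.7% with centred arrays and 57.9% with loess. Ddx5 (-0.13 as deposited) was at 0.065 with centring and 0.12 with loess, and Snrpc (-0.07) at 0.12 with centring and 0.047 with loess, since both settings remove the offset of replicate 2. Tra2b (0.18) was at -0.085 with its strongest probe and -0.026 without the unmatched probe, which drop that probe's ratio of 2.15. Of the values of named members under these settings, 6 reversed, 3 passed the threshold anew (Ppie at -0.96 with the trend and -0.93 with loess, Magoh at 0.83 with loess) and 141 kept direction and side. Single arrays allow no test. The class medians without replicate 1 lay between -0.69 and -0.32, and without replicate 2 between -0.10 and 0.42. The test is itself paired, as each ratio sets KO against wt on the same array, so there was no separate fit with a block. Precision is limited by there being 2 arrays.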
